A study of Mus musculus with 12 samples.

Results

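The transcripts described here are those of 53 genes of the cell cycle and of DNA replication in bone marrow-derived macrophages (BMDMs). They were chosen by symbol from the 18376 genes of the deposited table, and all 53 were found in it. Expression was measured by RNA sequencing in 12 libraries, 3 in each of 4 groups, all from WT C57BL6/J adult mice. Every culture was started from bone marrow progenitor cells and received 50 ng/ml M-CSF, the growth factor on which these cells divide and mature into macrophages, and all were collected on day 6. CTRL cells received nothing further, Act cells received 50 ng/ml recombinant activin A, FST cells received 250 ng/ml FST288, and Act + FST cells received both at these doses. Activin A is a secreted dimer of the TGF-β family, and FST288, a follistatin isoform, binds it so tightly that it no longer reaches its receptors. The sources used here do not say whether the 3 libraries of a group came from separate mice or cultures, so the p-values measure the spread between these libraries, which may be technical.

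Division starts when growth factor signals raise D-type cyclins, which activate CDK4 and CDK6. These kinases and cyclin E with CDK2 phosphorylate the retinoblastoma (pocket) proteins, which releases E2F factors and turns on the genes of origin licensing, DNA synthesis and deoxynucleotide supply. Later, B-MYB (Mybl2) and FOXM1 act on the genes of mitosis, whose products build the spindle, hold the checkpoint and separate the daughter cells. CDK inhibitors act against these kinases, and in macrophages grown with M-CSF division slows as the cells mature.

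Values are normalized counts, that is, read counts per gene scaled by 1 factor per library and rounded, with totals between 5643708 and 5955400 per library. The scaled totals do not show the original sequencing depth, and error from counting reads is included in the spread among libraries. Where values per library are given, they are in the order of replicates 1, 2 and 3. Fold changes are differences of log2(normalized count + 1), which makes changes at low values look smaller, and ± after a fold change is its standard error (SE). Adjusted p-values are from limma, corrected by Benjamini-Hochberg over the 14318 genes tested, and all 53 members were among them. A gene is called higher or lower at an adjusted p of at most 0.05, and called a DEG where its fold change is also at least 2.

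The cells carried macrophage transcripts in all groups. The 8 macrophage genes examined, among them Adgre1 (F4/80), Csf1r (the M-CSF receptor), Cd68 and Mertk, summed to between 11172 and 12394 in the 12 libraries, and 1 of the 8 was called in Act versus CTRL (Cd14, higher). In CTRL the mean of the macrophage gene Lyz2 was 1160, close to the 1057 of the member Cdkn1b. Whether the deposited values compress abundant transcripts, which could hide changes in this sum, was not tested. The sum of 8 genes of myeloid progenitors was between 161 and 460 in CTRL, between 126 and 202 in Act, between 182 and 352 in Act + FST and between 252 and 383 in FST. Of these 8, 4 were lower in Act than in CTRL (Kit, Mpo, Elane and Ms4a3) and 1 was higher (Cd34). For neutrophil genes the sum was between 1547 and 2150 in Act and between 1630 and 1884 in CTRL. In these 6 libraries Ltf was between 344 and 592 and S100a9 between 186 and 241, while Ly6g was between 2 and 8. Stromal genes summed to between 50 and 168 in 11 libraries and to 264 in Act replicate 1, with Pdgfra at 0 in 10 of the 12 libraries. Of the 4 stromal genes tested, 3 had a positive estimate in Act versus CTRL and none of these was called. The other 1 was called lower, and the median log2 fold change of the 4 was 0.92. Sums of lymphoid, erythroid and mast cell genes reached at most 44. Of 8 genes listed for each, the deposited values held 7 stromal, 7 lymphoid, 4 mast cell and only 1 erythroid gene. The part of progenitor, neutrophil or stromal cells in the results was not tested. In bulk libraries, a smaller share of dividing cells and less of a transcript per dividing cell cannot be told apart.

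A single library stood apart within its group. Act + FST replicate 3 held the highest value of all 12 libraries in 41 of the 53 members, against 11.7% of all genes tested. All 19 members that act in mitosis were among the 41, and for them replicate 3 was between 1.496 and 4.68 times the mean of Act + FST replicates 1 and 2 (median 3.09), against a median ratio of 0.997 over all genes tested. Cenpf gave the highest ratio, with 716 in replicate 3 against 206 and 100. Act + FST replicate 2 was the lowest of the 9 libraries outside Act in 32 members, 17 of them mitotic, against 11.7% of genes. The sum of progenitor genes was 182 in replicate 3, against 257 and 352 in replicates 1 and 2. Comparisons that use the Act + FST group are therefore also given without replicate 3.

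**Figure D1:**
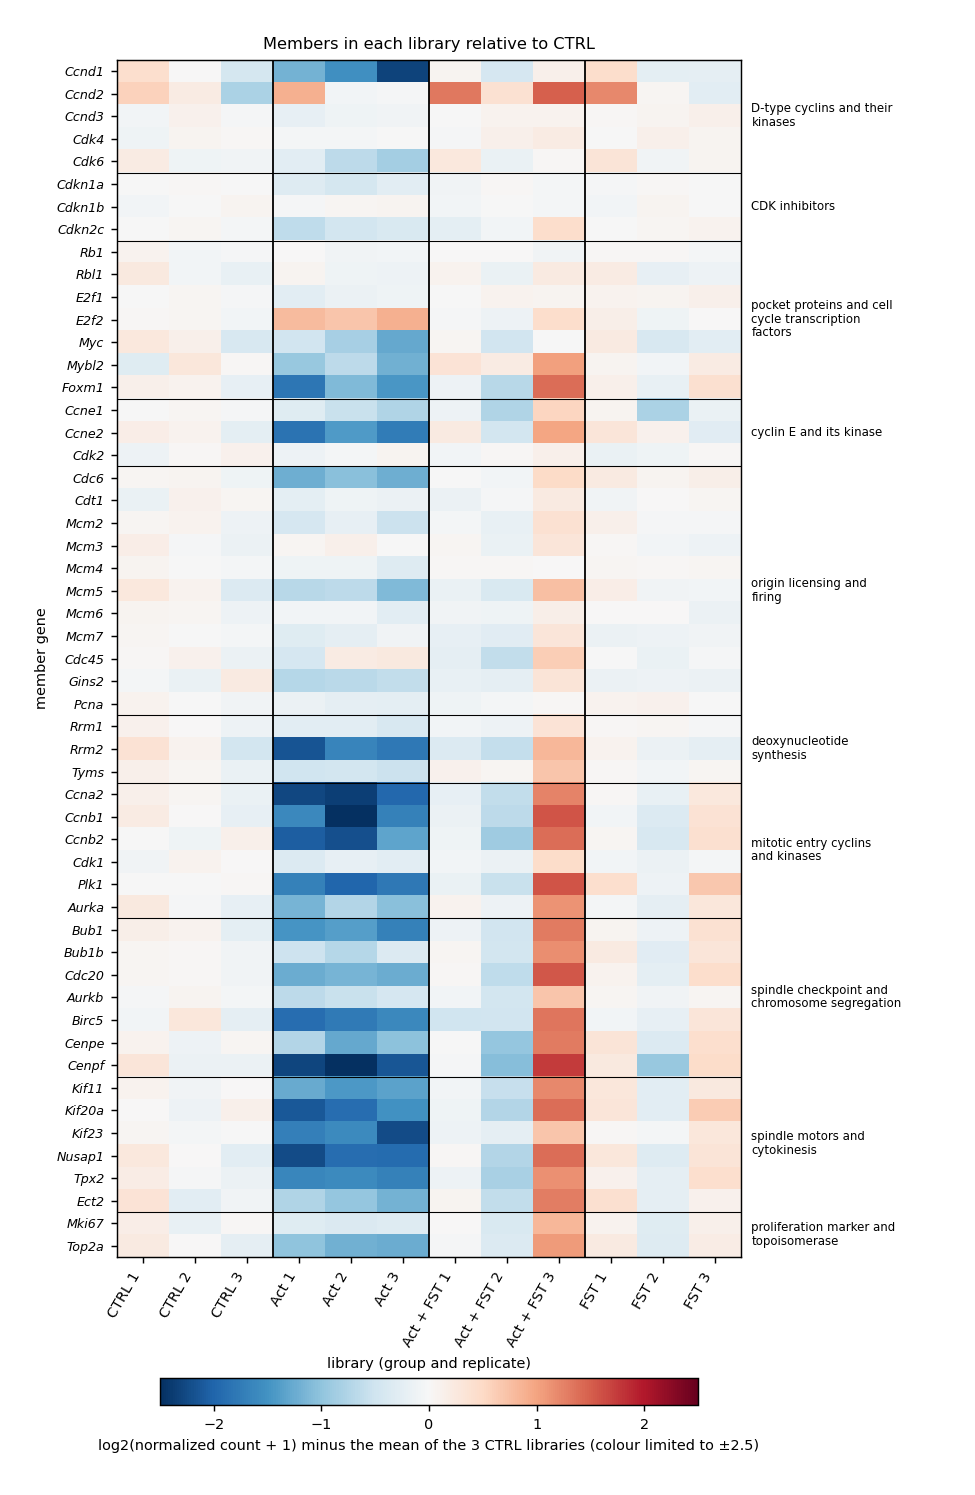
Heat map of the 53 members (rows, by role) in the 12 libraries (columns), as log2(normalized count + 1) minus the mean of the 3 CTRL libraries, with colours limited to ±2.5. Most mitotic genes are blue in the 3 Act libraries and red in Act + FST replicate 3, and E2f2 is red in all 3 Act libraries.

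The first question was what activin A alone did to these transcripts. In Act versus CTRL, 31 of the 53 members were lower, 1 was higher (E2f2) and 21 were not called, where 9.97% of all genes tested were lower and 10.3% higher. Of the 31, 19 were also DEGs, against 3.09% of all genes. The median log2 fold change was −0.59 over the members and 0.004 over all genes tested. In 42 members the 3 Act values lay below the 3 CTRL values without overlap, against 17.6% of all genes, and in 1 they lay above, against 18% of genes. In 35 members they lay below all 9 other libraries, against 11.3% of genes. With the replicate number as a block, 37 members were lower, against 15.2% of genes. Without CTRL replicate 2, 20 members were lower, and without Act + FST replicate 3, which enters through the shared estimate of the spread, 38 were. In the latter fit Mcm2, Mcm7, Rrm1, Cdk1, Bub1b, Aurkb, Cenpe and Ect2 were added (adjusted p between 0.0028 and 0.038) and Mcm4 was lost.

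Summed by role, the mitotic groups stood lowest in Act relative to CTRL. The 19 mitotic members summed to 4034, 3687 and 3610 in CTRL, 1526, 1452 and 1532 in Act, 3568, 2540 and 8687 in Act + FST, and 4199, 3176 and 4753 in FST. Act was thus at 39.8% of the CTRL mean. By role, the Act mean was 32.0% of the CTRL mean for spindle motors and cytokinesis, 42.7% for mitotic cyclins and kinases, 46.8% for the spindle checkpoint and chromosome segregation, 67.9% for Mki67 with Top2a, 70.0% for D-type cyclins and their kinases, 70.7% for deoxynucleotide synthesis, 85.1% for origin licensing and firing, 88.5% for CDK inhibitors, 89.8% for cyclin E and its kinase, and 94.1% for pocket proteins and transcription factors. Such sums follow the abundant genes. Single genes of G1 and of replication stood as low as mitotic ones, with Rrm2 at 26.5%, Ccne2 at 30.2% and Ccnd1 at 31.9% of the CTRL mean, and the mitotic kinase Cdk1 stood at 83.0%. The difference between roles itself was not tested.

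**Figure D2:**
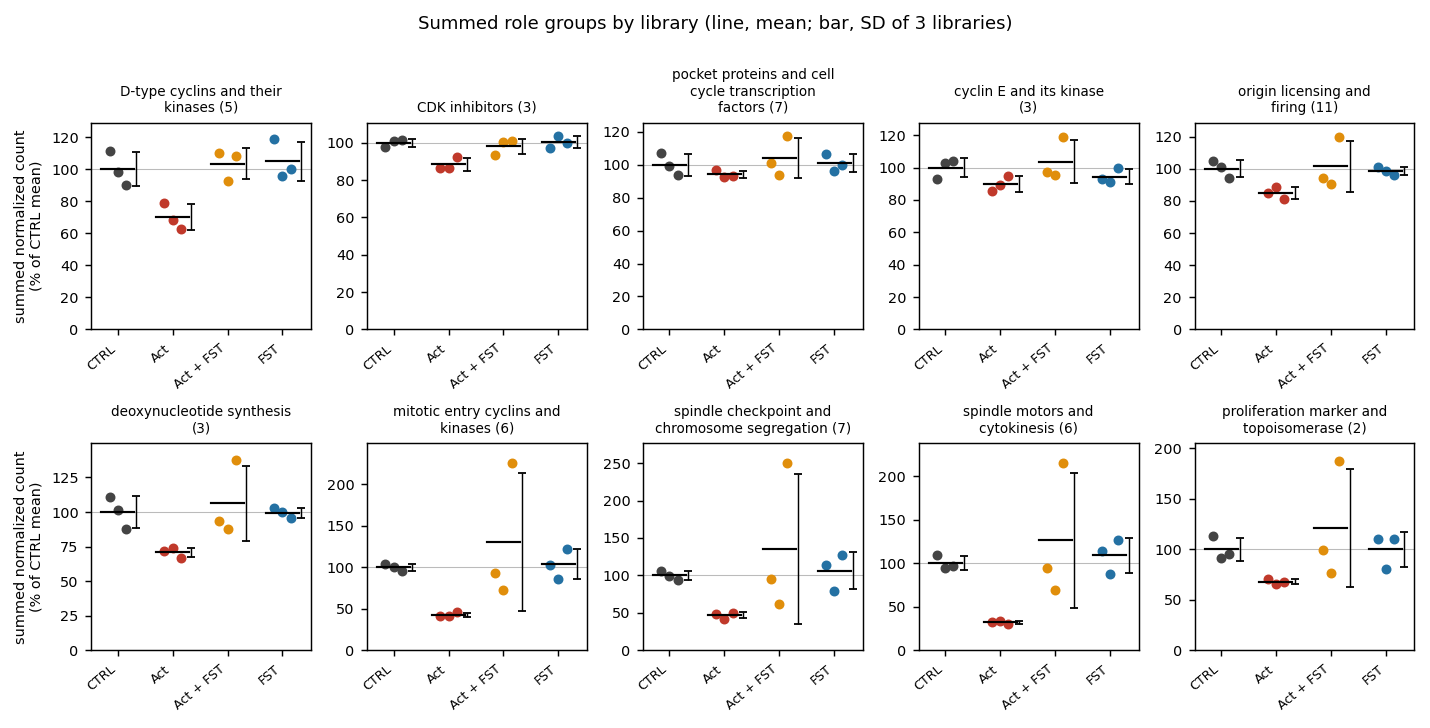
Summed normalized counts of each of the 10 role groups (number of genes in parentheses) as a percentage of the CTRL mean, 1 point per library, with the mean as a line and the SD of 3 libraries as a bar. The 3 mitotic groups sit between 30.1% and 49.2% of CTRL in the Act libraries, and Act + FST replicate 3 lies above all other libraries in them.

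The RefSeq promoter windows (GRCm38.p6, 250 bases before to 50 after the start) were searched for letters of elements known in cell cycle promoters, since many members moved together. Windows were held for 41 of the 53 members (47 windows in all). Searched on both strands were TTTGAA and TTTAAA (the cell cycle homology region, CHR), CCAAT, and TTTGGCGC, TTTCCCGC and TTTCGCGC (E2F). CHR letters stood in the windows of 13 of 15 mitotic members and of 5 of 14 members of the cyclin E, origin and deoxynucleotide groups, against 27.6% of all 32851 windows. CCAAT stood in 13 of the 15 and 10 of the 14, against 37.4% of all windows, and E2F letters in 1 of the 15 and 7 of the 14, against 1.84%. The member counts are of genes with a match in any window, and some genes have more than 1, while the shares over all windows are per window. Counted per window, CHR letters stood in 23 of the 47 member windows, CCAAT in 32 and E2F letters in 10. Among the 114 matches in the members' windows 1 pair from different elements overlapped. Of the members lower in Act versus CTRL, 12 of 22 held CHR letters and 2 of 22 E2F letters, and of those not called, 9 of 18 and 7 of 18. The 160 bases before the start are shown for 5 members, 5′ to 3′ on the gene's strand, with matches of either strand in capitals (CCAAT reads ATTGG, and TTTGAA reads TTCAAA, on the other strand). Of these, Ccnb2 and Kif11, of the mitotic groups, Top2a, the topoisomerase, and Mcm5, of the origin group, were lower in Act, and Mcm6 was not called. Overlapping E2F matches in Mcm5 and Mcm6 are joined into 1 run of capitals. A match describes letters only and shows no binding.
Ccnb2 (chr9:70421555-70421714, minus strand): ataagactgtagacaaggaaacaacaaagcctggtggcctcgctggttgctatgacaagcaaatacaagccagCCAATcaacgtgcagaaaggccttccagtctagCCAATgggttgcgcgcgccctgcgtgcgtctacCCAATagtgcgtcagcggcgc
Kif11 (chr19:37376222-37376381, plus strand): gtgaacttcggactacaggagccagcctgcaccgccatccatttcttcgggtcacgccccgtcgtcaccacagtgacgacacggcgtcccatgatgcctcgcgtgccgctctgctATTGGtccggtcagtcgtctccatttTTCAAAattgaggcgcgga
Top2a (chr11:99024190-99024349, minus strand): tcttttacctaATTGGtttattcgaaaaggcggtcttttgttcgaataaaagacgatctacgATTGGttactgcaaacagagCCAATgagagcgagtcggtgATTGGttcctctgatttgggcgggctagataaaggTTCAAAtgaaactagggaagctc
Mcm5 (chr8:75109349-75109508, plus strand): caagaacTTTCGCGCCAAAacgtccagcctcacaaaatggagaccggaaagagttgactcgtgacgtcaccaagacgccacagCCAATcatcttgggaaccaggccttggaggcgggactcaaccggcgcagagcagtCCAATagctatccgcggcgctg
Mcm6 (chr1:128359706-128359865, minus strand): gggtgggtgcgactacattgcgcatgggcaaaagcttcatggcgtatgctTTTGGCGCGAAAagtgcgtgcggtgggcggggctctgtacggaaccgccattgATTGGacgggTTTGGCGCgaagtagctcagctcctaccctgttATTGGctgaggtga

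Among D-type cyclins and their kinases, 2 of 5 were lower in Act than in CTRL and none was higher. Ccnd1 (cyclin D1, chr7:144929931-144939925, minus strand) measured 710, 536 and 389 in CTRL, 233, 183 and 106 in Act, 553, 393 and 576 in Act + FST and 719, 446 and 452 in FST. All 3 Act values lay below the 9 others. The change in Act versus CTRL was −1.67 ± 0.29 (adjusted p = 0.0014), and Act versus Act + FST gave −1.59 ± 0.29 (adjusted p = 0.0019), or −1.49 without Act + FST replicate 3 (adjusted p = 0.0086). Of its exonic bases, 23.4% also belong to a gene on the other strand, and the strand setting of the read counting was not given. Cdk6, a kinase that cyclin D activates (chr5:3341485-3531008, plus strand), measured 1247, 999 and 1012 in CTRL, 901, 688 and 596 in Act, 1292, 964 and 1108 in Act + FST and 1350, 1013 and 1137 in FST. Its Act values lay below all others, and the fold change was −0.59 ± 0.15 (adjusted p = 0.017). Its call was lost without CTRL replicate 1 (adjusted p = 0.062), Act replicate 2 (0.058) or Act replicate 3 (0.076), and Act versus Act + FST gave −0.63 ± 0.15 (adjusted p = 0.011), lost without Act replicate 3 (0.051), or −0.64 without Act + FST replicate 3 (adjusted p = 0.029). The other D-type cyclins differed less. Ccnd3 (cyclin D3) had means of 367 in CTRL and 334.7 in Act (−0.13 ± 0.06, adjusted p = 0.13, and 0.038 with the block). Ccnd2 (cyclin D2) was low, with 51, 39 and 19 in CTRL and 63, 32 and 33 in Act, and its groups overlapped (adjusted p = 0.75). Cdk4 was at 525 in CTRL and 511.3 in Act, a log2 fold change of −0.04 with a 95% interval from −0.17 to 0.10.

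None of the 3 CDK inhibitors was higher in Act, and 2 were lower. Cdkn1a (p21, chr17:29090976-29100727, plus strand), which holds cyclin-CDK complexes inactive, measured 993, 1012 and 990 in CTRL, 797, 735 and 833 in Act, 944, 1023 and 961 in Act + FST and 984, 1025 and 987 in FST. All 3 Act values were the lowest of the 12. The decrease was small and narrow in error, at −0.34 ± 0.05 (adjusted p = 3.3e-04) in Act versus CTRL and −0.31 ± 0.05 (adjusted p = 7.0e-04) in Act versus Act + FST, or −0.32 without Act + FST replicate 3 (adjusted p = 0.0023). Cdkn2c (p18INK4c, chr4:109660876-109667189, minus strand), an inhibitor of CDK4 and CDK6, measured 275, 287 and 266 in CTRL, 178, 201 and 212 in Act, 233, 264 and 374 in Act + FST and 275, 285 and 293 in FST. Act was lowest again, and Act + FST replicate 3 was highest. Its change was −0.49 ± 0.13 (adjusted p = 0.021), lost without CTRL replicate 2 (adjusted p = 0.069) or Act replicate 1 (0.081), and −0.53 ± 0.13 (adjusted p = 0.012) in Act versus Act + FST, lost without Act replicate 1 (0.053). The latter was −0.34 without Act + FST replicate 3 (adjusted p = 0.017). Cdkn1b (p27) lay between 1002 and 1112 in all 12 libraries (Act versus CTRL 0.03, 95% interval −0.08 to 0.13).

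Of the pocket proteins and transcription factors, 4 of 7 were lower and 1 was higher. E2f2 (chr4:136172394-136196057, plus strand), a transcription factor of the E2F family, measured 215, 218 and 203 in CTRL, 367, 344 and 395 in Act, 207, 194 and 286 in Act + FST and 235, 197 and 213 in FST. It was the only member whose 3 Act values lay above all 9 others, which held for 12.7% of all genes tested. The increase was 0.79 ± 0.12 (adjusted p = 5.9e-04) in Act versus CTRL, a factor of 1.73, and 0.70 ± 0.12 (adjusted p = 0.0013) in Act versus Act + FST, or 0.87 without Act + FST replicate 3 (adjusted p = 4.5e-05). E2f1, another activating E2F, moved the other way by little, with 381, 394 and 375 in CTRL and 321, 346 and 355 in Act (−0.17 ± 0.05, adjusted p = 0.028). This call was lost without CTRL replicates 1 (adjusted p = 0.055), 2 (0.099) or 3 (0.051) or Act replicates 1 (0.12) or 2 (0.054), and in Act versus Act + FST the change was −0.22 ± 0.05 (adjusted p = 0.0061), or −0.21 without Act + FST replicate 3 (adjusted p = 0.024). The pocket protein genes were not called. Rb1 was between 1073 and 1216 in all libraries, and Rbl1 (p107) between 351 and 477, with 95% intervals in Act versus CTRL of −0.16 to 0.06 and −0.34 to 0.23.

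Foxm1 (chr6:128362967-128376146, plus strand), the transcription factor of G2 and mitosis, measured 205, 200 and 164 in CTRL, 53, 87 and 68 in Act, 173, 116 and 499 in Act + FST and 206, 166 and 248 in FST. Act values were all below the others, and Act + FST replicate 3 was the highest of the 12. The fold change was −1.46 ± 0.40 (adjusted p = 0.02), lost without CTRL replicates 1 (adjusted p = 0.053) or 2 (0.061) or Act replicates 1 (0.075) or 3 (0.056), and −1.65 ± 0.40 (adjusted p = 0.0097) in Act versus Act + FST, or −1.05 without Act + FST replicate 3 (0.0078). Mybl2 (chr2:163054687-163084688, plus strand), which acts on mitotic genes, was low at 27, 41 and 34 in CTRL, 17, 21 and 14 in Act, 43, 39 and 69 in Act + FST and 35, 32 and 39 in FST. Its Act values lay below all others. The change was −0.93 ± 0.24 (adjusted p = 0.017), lost without CTRL replicates 2 (adjusted p = 0.072) or 3 (0.052) or Act replicate 3 (0.07), and −1.46 ± 0.24 (adjusted p = 0.0011) in Act versus Act + FST, or −1.21 without Act + FST replicate 3 (adjusted p = 0.004). Myc, a growth-promoting transcription factor, fell from 175, 158 and 110 in CTRL to 104, 81 and 59 in Act (−0.86 ± 0.24, adjusted p = 0.022). Replicate 3 was lowest in both groups, and the call was lost without CTRL replicates 1 (adjusted p = 0.077) or 2 (0.075) or Act replicates 2 (0.055) or 3 (0.096). With an adjusted p of 0.05 and overlapping groups, Myc was at the threshold in Act versus Act + FST, and it was not called without CTRL replicate 2 (0.062), Act replicates 2 (0.1) or 3 (0.19), Act + FST replicates 1 (0.13) or 3 (0.14), or FST replicates 2 (0.054) or 3 (0.065).

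The E-type cyclins drive entry into S phase, and 1 of 2 was called. Ccne2 (cyclin E2, chr4:11191351-11204779, plus strand) measured 59, 56 and 44 in CTRL, 14, 19 and 15 in Act, 62, 38 and 105 in Act + FST and 65, 57 and 43 in FST. Act values reached 19 at most, and no other value was below 38. It was lower in Act by −1.67 ± 0.30 (adjusted p = 0.002) against CTRL and −1.92 ± 0.30 (adjusted p = 7.2e-04) against Act + FST, or −1.56 without Act + FST replicate 3 (adjusted p = 0.0016). Of its exonic bases, 17.4% are shared with a gene on the other strand. Ccne1 had means of 49.3 and 34 (−0.54 ± 0.30, adjusted p = 0.24), which was not called although the groups did not overlap. Their kinase Cdk2 was at 519 in CTRL and 507.7 in Act (95% interval −0.20 to 0.14).

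Replication genes were mixed, with 5 of 11 origin genes and 2 of 3 deoxynucleotide genes lower in Act versus CTRL. Cdc6 (chr11:98907801-98923940, plus strand), which loads the MCM helicase at origins, measured 86, 87 and 77 in CTRL, 35, 40 and 35 in Act, 83, 79 and 116 in Act + FST and 97, 87 and 92 in FST. Act values reached 40 at most, and the other values began at 77. The change was −1.16 ± 0.15 (adjusted p = 1.5e-04) against CTRL and −1.30 ± 0.15 (adjusted p = 6.2e-05) against Act + FST, and −1.13 without Act + FST replicate 3 (adjusted p = 1.2e-04). Gins2 (chr8:120578633-120589304, minus strand), a subunit of the GINS complex of the active helicase, measured 154, 142 and 186 in CTRL, 97, 100 and 104 in Act, 140, 136 and 199 in Act + FST and 145, 146 and 144 in FST. Its Act values lay below all others, and the change was −0.66 ± 0.14 (adjusted p = 0.0043) against CTRL and −0.63 ± 0.14 (adjusted p = 0.0054) against Act + FST, or −0.46 without Act + FST replicate 3 (adjusted p = 0.013). Of its exonic bases, 67.3% are shared with Gse1 on the other strand. The paper states that reads overlapping several genes were left out. If strand was not used, reads in the shared bases would thus be missing from the value of Gins2.

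The MCM helicase subunits did not move alike. Mcm5 had means of 222.7 in CTRL and 125 in Act (−0.82 ± 0.25, adjusted p = 0.035), lost without any 1 of CTRL replicates 1 (adjusted p = 0.11) and 2 (0.097) and Act replicates 1 (0.059), 2 (0.055) and 3 (0.13). Mcm4 changed by −0.18 ± 0.06 (adjusted p = 0.045), a call lost without any 1 of 10 libraries (adjusted p between 0.052 and 0.16, all but Act replicates 1 and 2). Mcm2 had an adjusted p of 0.053 (log2 fold change −0.39, 0.029 with the block, and 0.011 without Act + FST replicate 3). Mcm3, Mcm6 and Mcm7 were not called, with Act means at 104%, 90.8% and 86.9% of CTRL, but without Act + FST replicate 3 Mcm7 was lower (adjusted p = 0.032). Among the partners of the helicase, Cdt1 (licensing) had means of 269.7 and 240.0 and Cdc45 of 69.7 and 71.3, neither called. Pcna, the sliding clamp of the polymerases, changed by −0.21 ± 0.06 (adjusted p = 0.029), lost without CTRL replicates 1 (adjusted p = 0.1) or 2 (0.068) or Act replicates 2 (0.083) or 3 (0.099).

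Ribonucleotide reductase, which makes deoxynucleotides, has a large subunit (Rrm1) and a small subunit (Rrm2). Rrm2 (chr12:24708241-24714146, plus strand) measured 172, 142 and 97 in CTRL, 29, 42 and 38 in Act, 105, 88 and 237 in Act + FST and 142, 121 and 114 in FST. Every Act value was below every other value. Its decrease was −1.86 ± 0.31 (adjusted p = 0.0012) against CTRL and −1.83 ± 0.31 (adjusted p = 0.0013) against Act + FST, or −1.40 without Act + FST replicate 3 (adjusted p = 0.0013). For Rrm1 the means were 622 and 501, with a log2 fold change of −0.31 and an adjusted p of 0.051 (0.026 with the block and 0.0037 without Act + FST replicate 3). Tyms, thymidylate synthase, fell from 91, 87 and 74 to 59, 61 and 57 (−0.50 ± 0.16, adjusted p = 0.042). Without CTRL replicates 1 (adjusted p = 0.11) or 2 (0.11), any 1 Act library (0.081 to 0.11) or any 1 FST library (0.054 to 0.057), this call was lost.

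Among mitotic entry genes, 5 of 6 were lower in Act versus CTRL. Ccna2 (cyclin A2, chr3:36564865-36572150, minus strand) measured 246, 232 and 200 in CTRL, 46, 43 and 57 in Act, 196, 147 and 530 in Act + FST and 231, 199 and 272 in FST. Its Act values reached 57 at most, and the other values began at 147. The change was −2.20 ± 0.34 (adjusted p = 6.7e-04) against CTRL and −2.34 ± 0.34 (adjusted p = 4.3e-04) against Act + FST, or −1.79 without Act + FST replicate 3 (adjusted p = 3.8e-05). Ccnb1 (cyclin B1, chr13:100778650-100786570, minus strand) measured 80, 70 and 60 in CTRL, 22, 8 and 21 in Act, 63, 44 and 209 in Act + FST and 66, 55 and 90 in FST. Act was lowest, and the change was −2.09 ± 0.49 (adjusted p = 0.0094). Ccnb2 (cyclin B2, chr9:70407692-70421547, minus strand) measured 136, 126 and 148 in CTRL, 32, 29 and 54 in Act, 127, 73 and 360 in Act + FST and 141, 103 and 181 in FST. It was lower too, at −1.86 ± 0.44 (adjusted p = 0.01). Against Act + FST, the changes were −2.35 ± 0.49 (adjusted p = 0.0044) for Ccnb1 and −1.99 ± 0.44 (adjusted p = 0.0063) for Ccnb2, and −1.70 and −1.36 without Act + FST replicate 3 (adjusted p = 0.0082 and 0.0084).

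Of the 3 mitotic kinases, 2 were lower as well. Plk1 (polo-like kinase 1, chr7:122159439-122169873, plus strand) measured 109, 108 and 111 in CTRL, 33, 27 and 31 in Act, 97, 74 and 327 in Act + FST and 146, 100 and 175 in FST. Act values reached 33 at most, and the other values began at 74. It was lower by −1.82 ± 0.41 (adjusted p = 0.0072) against CTRL and −2.10 ± 0.41 (adjusted p = 0.0029) against Act + FST, or −1.46 without Act + FST replicate 3 (adjusted p = 5.9e-04). Aurka (Aurora A) fell from 124, 102 and 91 to 46, 63 and 50 (−0.98 ± 0.27, adjusted p = 0.022), a call lost without CTRL replicates 1 (adjusted p = 0.072) or 2 (0.055) or Act replicates 1 (0.077) or 3 (0.069). Cdk1, the kinase that cyclins A and B activate, had means of 221.3 and 183.7 and was not called (−0.27 ± 0.13, adjusted p = 0.17, 95% interval −0.54 to 0.01), but it was without Act + FST replicate 3 (adjusted p = 0.015). Its interval over all 12 libraries lies above the estimates of its cyclins, and that difference was not tested.

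Of 7 checkpoint and segregation genes, 4 were lower. Cenpf (a kinetochore protein, chr1:189640606-189688086, minus strand) measured 260, 191 and 190 in CTRL, 42, 32 and 47 in Act, 206, 100 and 716 in Act + FST and 249, 109 and 290 in FST. It had the largest log2 fold change of the 53, at −2.38 ± 0.55 (adjusted p = 0.0086), a factor of 5.20, and its values outside Act ranged from 100 to 716. Against Act + FST the change was −2.59 ± 0.55 (adjusted p = 0.0048), or −1.82 without Act + FST replicate 3 (adjusted p = 0.0067). Birc5 (survivin, chr11:117849251-117855743, plus strand), of the chromosomal passenger complex, measured 110, 141 and 98 in CTRL, 30, 33 and 37 in Act, 81, 82 and 293 in Act + FST and 110, 99 and 142 in FST. Act was lowest in all 3 libraries, with −1.76 ± 0.38 (adjusted p = 0.006) against CTRL and −1.88 ± 0.38 (adjusted p = 0.0037) against Act + FST, or −1.27 without Act + FST replicate 3 (adjusted p = 7.0e-04). Bub1, a checkpoint kinase (chr2:127801122-127831865, minus strand), measured 164, 157 and 124 in CTRL, 52, 56 and 45 in Act, 134, 105 and 364 in Act + FST and 154, 135 and 191 in FST. It was lower by −1.52 ± 0.34 (adjusted p = 0.0073) against CTRL and −1.74 ± 0.34 (adjusted p = 0.003) against Act + FST, or −1.21 without Act + FST replicate 3 (adjusted p = 7.0e-04).

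The remaining checkpoint genes changed less or with more spread. Cdc20, the activator of the anaphase-promoting complex, fell from 97, 96 and 88 to 39, 41 and 39 (−1.22 ± 0.40, adjusted p = 0.047). Its adjusted p rose above the threshold, to between 0.053 and 0.11, without any 1 of 10 libraries (all but Act + FST replicates 2 and 3). Values of Cdc20 in Act + FST ran from 60 to 276. Aurkb (Aurora B), Bub1b (BUBR1) and Cenpe (a kinetochore motor) were not called, with adjusted p of 0.084, 0.27 and 0.11, although their Act values lay below all CTRL values. With the block, Aurkb (0.024) and Cenpe (0.013) were called and Bub1b (0.085) was not. Without Act + FST replicate 3 all 3 were called lower than in CTRL, with adjusted p of 0.0028 for Aurkb, 0.038 for Bub1b and 0.011 for Cenpe.

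Spindle motors and cytokinesis genes stood at the lowest share of CTRL, with 5 of 6 lower. Kif23 (MKLP1, a motor of the central spindle, chr9:61915905-61946774, minus strand) measured 518, 478 and 497 in CTRL, 152, 164 and 105 in Act, 456, 428 and 800 in Act + FST and 509, 480 and 604 in FST. It had the smallest p of the 53 in both comparisons, with −1.84 ± 0.21 (adjusted p = 6.6e-05) against CTRL and −1.96 ± 0.21 (adjusted p = 4.1e-05) against Act + FST, or −1.67 without Act + FST replicate 3 (adjusted p = 3.6e-05). Kif11 (the motor that separates spindle poles, chr19:37376403-37421859, plus strand) measured 289, 254 and 271 in CTRL, 113, 100 and 107 in Act, 260, 182 and 624 in Act + FST and 328, 227 and 323 in FST. Its Act values lay below all others, and the changes were −1.34 ± 0.32 (adjusted p = 0.011) against CTRL and −1.53 ± 0.32 (adjusted p = 0.0047) against Act + FST, or −1.02 without Act + FST replicate 3 (adjusted p = 0.0014). Kif20a, a motor of cytokinesis (chromosome 18), measured 219, 198 and 237 in CTRL, 49, 57 and 76 in Act, 202, 131 and 573 in Act + FST and 269, 180 and 339 in FST. Its changes were −1.85 ± 0.41 (adjusted p = 0.0067) against CTRL and −2.04 ± 0.41 (adjusted p = 0.0035) against Act + FST, or −1.43 without Act + FST replicate 3 (adjusted p = 0.0027). Of its exonic bases, 29.3% are shared with a gene on the other strand.

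Nusap1 and Tpx2 bind spindle microtubules. Nusap1 (chr2:119618298-119651244, plus strand) measured 210, 174 and 144 in CTRL, 36, 46 and 45 in Act, 177, 104 and 457 in Act + FST and 213, 138 and 218 in FST. It was at 24.1% of the CTRL mean in Act, a change of −2.02 ± 0.40 (adjusted p = 0.0032), and −2.25 ± 0.40 (adjusted p = 0.0015) against Act + FST, or −1.67 without Act + FST replicate 3 (adjusted p = 8.6e-04). Tpx2 (chr2:152847964-152895321, plus strand) measured 292, 254 and 232 in CTRL, 83, 85 and 79 in Act, 237, 146 and 570 in Act + FST and 279, 222 and 347 in FST. Its 3 Act values ran only from 79 to 85, and its changes were −1.64 ± 0.35 (adjusted p = 0.0056) against CTRL and −1.70 ± 0.35 (adjusted p = 0.0041) against Act + FST, or −1.17 without Act + FST replicate 3 (adjusted p = 0.0021). Ect2, which starts the cleavage furrow, had means of 128.7 in CTRL and 64.7 in Act and was not called against CTRL (adjusted p = 0.081, 0.019 with the block and 0.0076 without Act + FST replicate 3).

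Mki67 encodes Ki-67, the antigen most used to stain dividing cells, and it was not called. It measured 1337, 1052 and 1214 in CTRL, 972, 926 and 961 in Act, 1206, 919 and 2121 in Act + FST and 1279, 966 and 1303 in FST. Act values were below all CTRL values, but Act + FST replicate 2 (919) and FST replicate 2 (966) were at the level of Act. The change was −0.33 ± 0.23 (adjusted p = 0.37), with a 95% interval from −0.82 to 0.17. Of 21 alternative fits, 1 called Mki67 lower than in CTRL (adjusted p = 0.023). Top2a (topoisomerase II α, chr11:98992943-99024189, minus strand) measured 680, 582 and 497 in CTRL, 288, 251 and 245 in Act, 569, 456 and 1221 in Act + FST and 682, 466 and 664 in FST. Here Act was lowest without overlap, at −1.16 ± 0.28 (adjusted p = 0.011) against CTRL and −1.38 ± 0.28 (adjusted p = 0.0036) against Act + FST, or −0.96 without Act + FST replicate 3 (adjusted p = 0.0022).

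**Figure D3:**
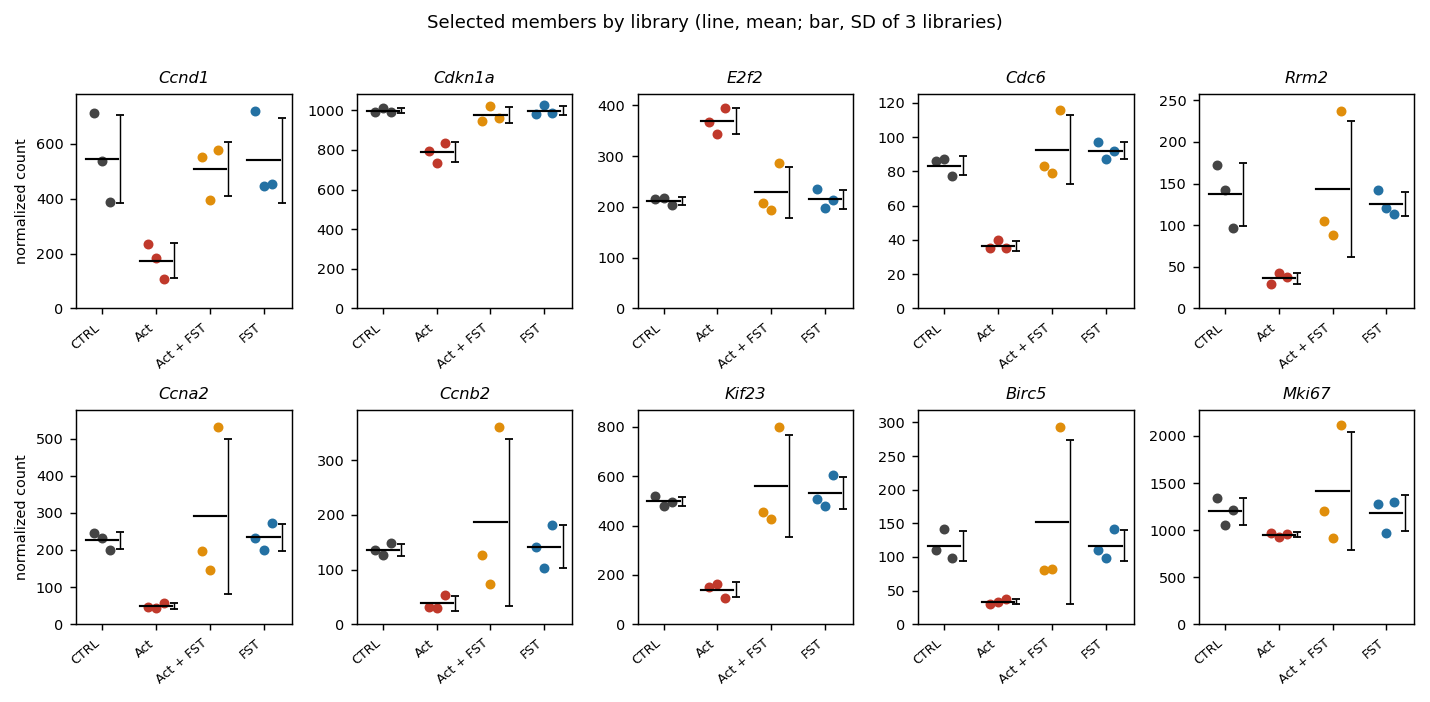
Normalized counts of 10 members in the 12 libraries, with the mean as a line and the SD of 3 libraries as a bar. The Act points lie below all others for Ccnd1, Cdkn1a, Cdc6, Rrm2, Ccna2, Ccnb2, Kif23 and Birc5 and above them for E2f2, while for Mki67 they meet the lowest points of Act + FST and FST.

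Levels differed widely between members in the CTRL cells of day 6. Per kilobase of exon, CTRL means were highest for Cdkn1a (281 normalized counts per kilobase), Cdkn1b (232.1), Rb1 (189.9) and Cdk4 (161.6). The lowest were Ccnd2 (3.86), Mybl2 (7.34), Tyms (13.8) and Cenpf (13.8). The length is that of all annotated exons of a gene merged (6089 bases for Tyms), so this ranking also depends on the annotation. The mitotic cyclins lay between these, with CTRL and Act means per kilobase of 55.4 and 11.9 for Ccna2, 89.3 and 25.04 for Ccnb2, and 16.6 and 4.03 for Ccnb1.

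The second question was whether activin A still acted when FST288 was present. In Act + FST versus CTRL, 0 members were called higher or lower, as were 0% of all genes tested. At an unadjusted p under 0.05, 1 member was higher (Ccnd2) and 0 were lower, against 2.49% and 2.08% of all genes, and the replicate block also called 0 (0.279% of genes were higher and 0.279% lower). Act + FST versus FST likewise gave 0 members by limma, with 0 at an unadjusted p under 0.05 (1.6% of genes were higher and 1.91% lower) and 0 with the block (0.0838% and 0.133%). Without Act + FST replicate 3 it again gave 0 members, but the median log2 difference of Act + FST from FST over the members went from 0.07 to −0.16, against −0.002 over all genes in both fits, and those of the mitotic entry, checkpoint and spindle groups from 0.14, 0.12 and 0.06 to −0.42, −0.41 and −0.43. Intervals were wide for mitotic genes, in which Act + FST replicate 3 was high. For Cenpf the log2 difference of Act + FST from CTRL was 0.22 (95% interval −0.98 to 1.41), for Ccna2 0.14 (−0.60 to 0.88) and for Kif23 0.11 (−0.34 to 0.57). They were narrow for Cdkn1a, at −0.03 (−0.14 to 0.07), an interval that does not reach the −0.34 measured with activin A alone. Without replicate 3 the median over the members moved from 0.08 to −0.18, and for Ccna2, Cenpf and Kif23 the differences became −0.41, −0.55 and −0.17, with 0 members called. The medians of the mitotic entry, checkpoint and spindle groups moved from 0.20, 0.22 and 0.19 to −0.38, −0.31 and −0.34.

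In Act versus Act + FST, 34 members were lower and 1 was higher (E2f2), where 10.2% of all genes tested were lower and 11.1% higher. Of the 34, 22 were DEGs, against 3.11% of all genes, and in 35 members the Act values lay below the Act + FST values without overlap, against 16.7%. The median log2 fold change was −0.78, and −0.55 without Act + FST replicate 3, against −0.003 over all genes. Without that library 27 members were lower. The calls of Ccnd3 (adjusted p = 0.1), Myc (0.14), Mcm2 (0.11), Mcm4 (0.052), Mcm5 (0.057), Rrm1 (0.058) and Ect2 (0.077) were lost. Leaving out other single libraries ended the calls of Ccnd3 (Act replicate 1, 0.13, Act replicate 2, 0.06, and Act + FST replicate 2, 0.096), Mcm2 (Act replicates 1, 0.082, and 3, 0.12), Mcm4 (Act replicate 3, 0.077, and Act + FST replicates 1, 0.052, and 2, 0.054), Mcm5 (Act replicate 3, 0.092), Rrm1 (Act replicate 3, 0.094) and Ect2 (Act replicates 2, 0.078, and 3, 0.1). With the block 42 were lower, against 15.4% of genes, adding Cdk4 (adjusted p = 0.025), Cdt1 (0.042), Pcna (0.043), Cdk1 (0.023), Bub1b (0.014), Aurkb (0.014), Cenpe (0.0068) and Mki67 (0.029). This comparison shares its Act libraries with Act versus CTRL, so the 30 members lower in both are not independent evidence. Pcna was lower only against CTRL, and Ccnd3, Mcm2, Rrm1 and Ect2 only against Act + FST, which does not show that these differ between the comparisons.

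**Figure D4:**
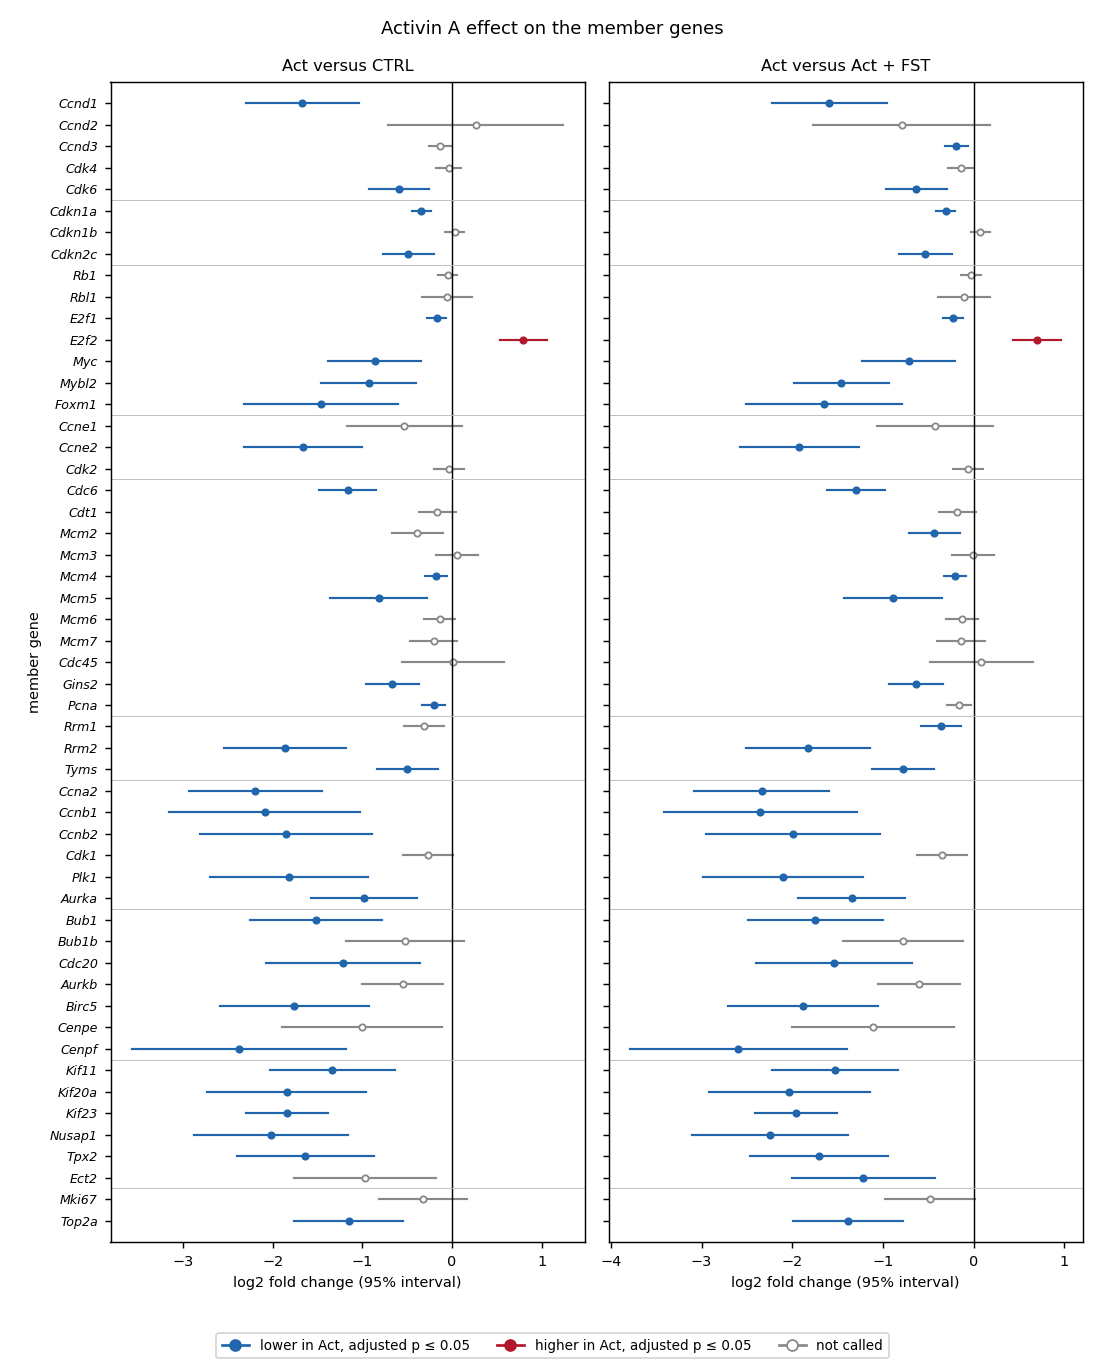
Log2 fold change of each member in Act versus CTRL (left) and Act versus Act + FST (right), with 95% intervals from limma. Filled blue points are lower and filled red points higher at an adjusted p of at most 0.05, open grey points are not called. E2f2 is the only red point in either panel, and both panels share the Act libraries.

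Whether the activin effect itself differed without and with FST288 was tested as an interaction, (Act minus CTRL) minus (Act + FST minus FST). It was called for 11 members, 10 with a more negative effect without FST288 and 1 with a more positive one (E2f2), where 2.75% and 3.99% of all genes tested were called in these directions. The 10 were Kif23, Cdc6, Ccna2, Cdkn1a, Ccne2, Rrm2, Mybl2, Gins2, Ccnd1 and Nusap1. In Kif23 the activin effect was −1.84 without FST288 and 0.03 with it, and in E2f2 it was 0.79 and 0.07. With the block 27 members were called with a more negative effect, against 6.96% of all genes, the 10 and Cdk6, Cdkn2c, Myc, Foxm1, Tyms, Ccnb1, Ccnb2, Plk1, Aurka, Bub1, Cdc20, Birc5, Cenpf, Kif11, Kif20a, Tpx2 and Top2a (adjusted p between 0.0011 for Cdk6 and 0.041 for Cdc20). Without Act + FST replicate 3 the count was 15, with Plk1, Aurka, Bub1, Birc5, Kif11, Tpx2 and Top2a added and Ccnd1 and Mybl2 lost. The count was 5 without CTRL replicate 2, Act replicate 1, Act replicate 3, FST replicate 2 or FST replicate 3, and 25 without Act + FST replicate 2. The call of E2f2 was lost without CTRL replicate 3, Act replicate 1, Act replicate 3, FST replicate 1 or FST replicate 3.

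FST288 alone made no called difference to these genes. In FST versus CTRL, 0 members were called by limma, 0 at an unadjusted p under 0.05 and 0 with the block, against 0% of all genes tested (1.15% higher and 0.936% lower at the unadjusted threshold). In 1 member (E2f1) the FST values lay above the CTRL values without overlap and in 1 (Mcm7) below, against 2.93% and 2.61% of genes. Estimates ran from −0.29 (Ccne1) to 0.34 (Ccnd2), with a median of 0.02. The 95% intervals were −0.11 to 0.11 for Cdkn1a, −0.37 to 0.54 for Kif23 and −1.28 to 1.11 for Cenpf.

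A further 100 cell cycle genes outside the 53 members were examined in 3 lists, and 99 of them were in the table. Of 36 S phase genes, 10 were lower and 0 higher in Act versus CTRL, with a median log2 fold change of −0.26. Over all genes tested, 9.97% were lower and 10.3% higher in this comparison, with a median of 0.004. Among those with small p were Cenpu (−0.82 ± 0.12, adjusted p = 4.6e-04) and Uhrf1 (−2.00 ± 0.35, 0.0014), the latter of which keeps DNA methylation through replication. Of 36 genes of G2 and M, 22 were lower and 0 higher (median −1.08), with 28 lower under the block, against 15.2% of all genes. Gtse1 (−1.38 ± 0.19, 2.7e-04), Nek2 (−2.51 ± 0.47, 0.0024), Pimreg (−3.02 ± 0.59, 0.003) and the checkpoint kinase Ttk (−2.31 ± 0.47, 0.004) had the smallest p. These 36 also peaked in Act + FST replicate 3, with a sum of 16455 there and between 7709 and 11767 in the other 11 libraries.

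In the third list, of 27 measured G1 regulators and growth arrest genes, 11 were lower and 4 were higher, against 9.97% and 10.3% of all genes tested. The 4 higher genes were E2f3 (0.24 ± 0.05, adjusted p = 0.0063), Btg2 (0.26 ± 0.07, 0.014), Mxi1 (0.24 ± 0.06, 0.015), which opposes MYC, and Btg1 (0.17 ± 0.05, 0.032), an antiproliferative gene as Btg2 is. None of them reached a fold change of 2. Lower were Wee1 (−1.06 ± 0.12, 7.2e-05), the kinase that restrains CDK1, Gadd45b (−0.66 ± 0.08, 1.1e-04), a stress-response gene, Skp2 (−0.55 ± 0.07, 1.9e-04), the ubiquitin ligase subunit that marks p27 for destruction, and E2f7 (−2.60 ± 0.52, 0.0035), a repressive E2F. Among the E2F genes called, E2f2 and E2f3 were thus higher in Act and E2f1 and E2f7 lower. E2f4, E2f5, E2f6 and, of the S phase list, E2f8 (0.34, adjusted p = 0.37) were not called.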

How the data were processed

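Total mRNA of 12 BMDM libraries was sequenced as single-end reads of 75 bases from a stranded kit. The authors trimmed reads with Trimmomatic 0.39, aligned them to mm10 (GRCm38) with STAR 2.7.9a, counted them per gene with featureCounts 2.0.2 and used DESeq2 1.30.0. The deposited signal is a count scaled by 1 factor per library and rounded. The formula of the scaling and the strand setting of the counting were not given in the sources used here. Whole reads could not be recovered, so a test for raw counts was not used.

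Of 18376 genes, the 14318 with a mean of at least 5 were tested with limma 3.58.1 in R 4.3.3, whose moderated variance followed the mean value, on log2(normalized count + 1), with 4 group means over all 12 libraries, two-sided. Groups came from the labels. Deviations from the group means correlated among libraries with the same replicate number (mean r across genes 0.312 over 18 pairs, lowest 0.157), so a fit with the number as a block is given where it changes a call. Exonic lengths and overlaps came from a GENCODE annotation of GRCm38, promoter sequences from RefSeq (GRCm38.p6), which matched 41 of the 53 members.

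Values per library and full statistics went to the 24 members with the smallest p in Act versus CTRL and to 1 member of each role with none of these, and up to 4 genes a direction were named from each further list. Some genes that this rule names are not reported here. The members, the lists and this rule were chosen with earlier results of these data known. Alternatives were pseudocounts of 0.5 and 5, no filter or a mean of at least 50, quantile normalization, recomputed TMM factors, only the libraries compared, the block, and leaving out each library. An alternative added after seeing the data replaced each deposited value x by −L ln(1 − x/L), with L the exonic length in bases. This formula is a correction for reads that share a start position. Whether such reads were removed from the deposited values is not known from the sources used here.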

Additional observations from a re-analysis of the deposited data

Results flagged for a closer look

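The activin effect without FST288 minus that with FST288, on the log2 scale, was called for 11 members by limma (adjusted over all genes tested). It was −1.87 for Kif23 (adjusted p = 0.0027), −1.15 for Cdc6 (0.0054), −2.29 for Ccna2 (0.014), −0.31 for Cdkn1a (0.018), −1.88 for Ccne2 (0.021), −1.92 for Rrm2 (0.022), −1.39 for Mybl2 (0.031), −0.77 for Gins2 (0.033), −1.60 for Ccnd1 (0.037) and −2.15 for Nusap1 (0.039). For E2f2 it was 0.72 (adjusted p = 0.026). All 4 groups enter this difference, so the high mitotic values of Act + FST replicate 3 are in it. Without that library the values were −1.59 for Kif23 (0.0015), −1.75 for Ccna2 (0.0015), −1.57 for Nusap1 (0.019) and 0.89 for E2f2 (0.0014), while Ccnd1 (−1.50, 0.075) and Mybl2 (−1.14, 0.056) were no longer called.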

How the results depend on the processing

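All 12 libraries shared 1 estimate of the spread, and original depth is not in the deposited values. Of the 32 members called in Act versus CTRL, 20 were called in the same direction under each alternative that could be computed for them, and 25 of 35 in Act versus Act + FST. The losses named beside the results are those from leaving out a library, and other alternatives also ended calls. In Act versus CTRL, E2f1 was called in 15 of 21 alternatives, Mcm4 in 9 and Cdc20 in 10. With only the libraries compared, Cdkn2c (adjusted p = 0.054) and Cdc20 (0.053) were not called in Act versus Act + FST. No alternative called a member in FST versus CTRL or in either comparison of Act + FST with CTRL or FST. Leaving out each library in turn gave between 20 (without CTRL replicate 2) and 38 members lower in Act versus CTRL, and between 27 and 37 in Act versus Act + FST, where only the libraries compared gave 25. For the difference in activin effect without and with FST288, it gave between 5 and 25 members more negative and between 0 and 1 more positive, and the replicate block gave 27 more negative. Estimates that were not called changed sign when 1 library was left out, in Act versus CTRL for Ccnd2 (−0.134 to 0.555), Cdk4 (−0.086 to 0.002), Cdkn1b (−0.004 to 0.066), Rbl1 (−0.145 to 0.063), Cdk2 (−0.099 to 0.019), Mcm3 (−0.018 to 0.142) and Cdc45 (−0.105 to 0.218), and in Act versus Act + FST for Mcm3 (−0.119 to 0.114), Mcm7 (−0.249 to 0.05) and Cdc45 (−0.183 to 0.432). The replicate block changed the call of no member other than those named beside the results.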
